A study of Mus musculus with 8 samples.

Results

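DNA methylation is written by the DNA methyltransferases and removed by the TET enzymes, and the 9 genes described here are the writers Dnmt1, Dnmt3a and Dnmt3b, the writers' cofactor Uhrf1, the erasers Tet1, Tet2 and Tet3, and the isocitrate dehydrogenase genes Idh1 and Idh2. They were taken by name as the genes of this machinery that are often discussed in myeloid disease, and all 9 were found among the 33435 named genes of the count table. The study measured polyadenylated RNA in sorted myeloid progenitors. Hematopoietic stem and progenitor cells came from fetal livers of C57BL/6J mice at stage E14.5. In 4 libraries the cells had received Trim27 virus, Trim27 being a ubiquitin ligase of the tripartite motif family, and in 4 libraries a GFP control virus, which the design text calls empty vector; the progenitors were sorted after infection. Both groups therefore carry a virus. Neither the promoter that drives Trim27 nor the infection rate is given in the labels, which also leave unstated if replicates are separate embryos or cultures. The p-values thus cover the spread of these libraries alone, and that spread could be technical.

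Dnmt1 copies methylation onto the new strand after replication, and Uhrf1 reads hemimethylated sites and brings Dnmt1 to them. Dnmt3a and Dnmt3b set methylation at new sites. TET enzymes oxidise methylcytosine and need 2-oxoglutarate, which Idh1 in the cytosol and Idh2 in mitochondria make from isocitrate. Loss of Tet2 or Dnmt3a is known from clonal expansion of blood stem cells, and mutant forms of Idh1 and Idh2 make 2-hydroxyglutarate, which inhibits TET enzymes.

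In the 4 libraries with Trim27 virus, Tet3, Tet1 and Dnmt3a were many times above their level in the 4 libraries with GFP virus. Uhrf1, Dnmt3b, Idh1 and Dnmt1 were higher by smaller amounts, Tet2 was near its GFP level, and Idh2 was slightly lower. At an adjusted p under 0.05 in edgeR's quasi-likelihood test, 8 of the 9 genes rose and 1 fell. The 8 include Tet2, whose call did not hold in 9 of 18 alternatives and whose direction turned in 1. They also include Tet1, which passed the filter on low counts through the Trim27 libraries alone. These calls have to be read against a comparison in which 85.5% of 11040 tested genes passed the same threshold. Of all tested genes 47.5% were higher and 38% lower. The libraries of the groups did not overlap for 8 of the 9 genes, the exception being Tet2, and for 80.7% of all tested genes. Of the 8, 7 were higher and 1 was lower. Among the 8911 tested genes without overlap 4999 were higher and 3912 lower, which are 45.3% and 35.4% of all tested genes. The shares called, and without overlap, in either direction were close to the background and are no result about this machinery. The share called higher was 88.9% of the 9 genes, against 47.5% of all tested genes, and this difference was not tested. The 47.5% is not matched for abundance or transcript length. Among tested genes like each member in both, the share higher ran from 17.8% (for Idh2) to 72.5% (for Tet1). In a fit that took out how each library varied with transcript length, 6 of the 9 were higher and 3 lower. Of all tested genes 4398 were then higher and 4892 lower.

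**Figure D1:**
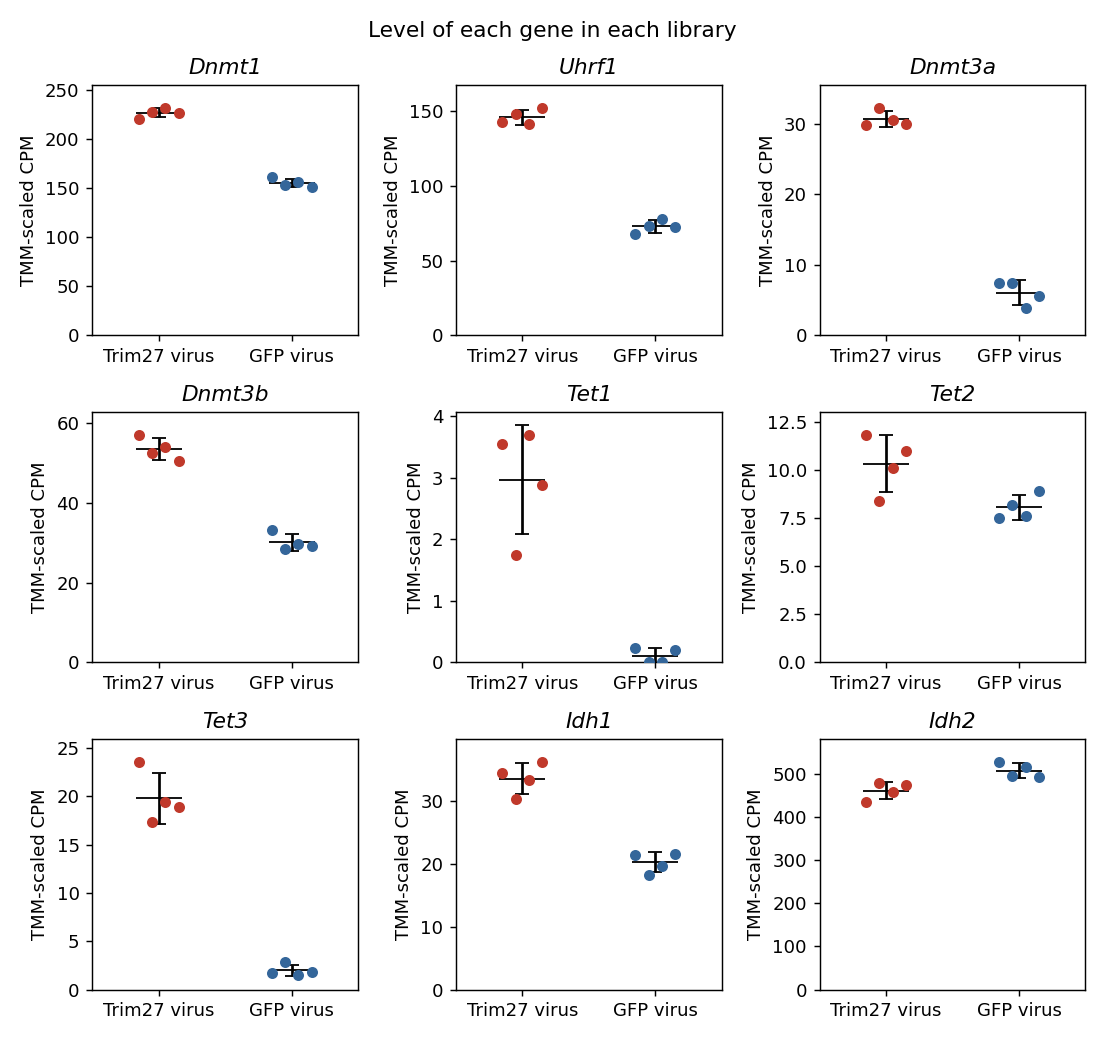
Level of each gene in each library, in CPM (counts scaled to library size with TMM factors) from 0, with Trim27 virus on the left and GFP virus on the right of each panel. Points are libraries, and the bar and whiskers are the mean ± SD of 4. Tet3, Dnmt3a and Tet1 are far apart between the groups, and only Tet2 overlaps (8.43 to 11.9 CPM with Trim27 virus, against 7.54 to 8.95 CPM with GFP virus).

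The maintenance pair was described first by the windows before its transcription starts, because these were the only member windows with a match to an E2F motif, the site of the factors that drive S phase genes. The RefSeq table (GRCm38.p6, while the counts were made on NCBIM37, so no position of one was used with the other) held 15 windows for the 9 genes, each cut here to the 250 bases before the annotated start. The letters searched on both strands were TTTCCCGC, TTTGGCGC and TTTCGCGC, which 1.53% of all 32851 windows held in any form. Among the 15 member windows 2 held one, 1 of the 3 of Dnmt1 at chr9:20952624-20952873 on the minus strand and 1 of the 2 of Uhrf1 at chr17:56304063-56304312 on the plus strand. They are shown 5′ to 3′ with the matched letters in capitals.
Dnmt1: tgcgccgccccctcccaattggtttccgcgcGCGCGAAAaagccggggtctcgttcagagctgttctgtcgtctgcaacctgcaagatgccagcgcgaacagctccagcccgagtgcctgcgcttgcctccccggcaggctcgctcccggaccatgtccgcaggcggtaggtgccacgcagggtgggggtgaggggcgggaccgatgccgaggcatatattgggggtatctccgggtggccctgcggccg
Uhrf1: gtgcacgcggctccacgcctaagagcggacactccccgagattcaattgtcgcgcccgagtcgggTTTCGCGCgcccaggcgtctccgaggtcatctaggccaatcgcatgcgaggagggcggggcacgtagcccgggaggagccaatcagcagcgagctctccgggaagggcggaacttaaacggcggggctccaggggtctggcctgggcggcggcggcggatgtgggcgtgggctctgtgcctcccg
Both sequences carry the same word, in Dnmt1 on the strand opposite to the gene. The Dnmt1 window shown lies downstream of another annotated Dnmt1 start. The window of that start, chr9:20952980-20953229 on the minus strand, held no match. No member window held CCGGAAGT, a form of the ETS motif found in 2.88% of all windows, or GAGGAAGT, a form of the PU.1 motif found in 2.44%. A match or its lack describes these letters only.

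Dnmt1 had 221, 228.3, 232.3 and 226.7 CPM in Trim27 replicates 1 to 4, against 161.3, 153.3, 156.5 and 151.3 CPM in GFP replicates 1 to 4. Each library with Trim27 virus lay above every GFP library. The mean was 227.1 ± 4.70 CPM in the Trim27 group and 155.6 ± 4.35 CPM in the GFP group (SD, n = 4 each), and the fitted log2 fold change was 0.55 (SE 0.05, adjusted p = 2.5e-11). This direction depended on the scaling, since the value was -0.20 (adjusted p = 0.000919) in a fit that took out how each library varied with transcript length, called removal of the length trend from here on.

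Uhrf1 had 142.8, 148, 141.5 and 152.4 CPM in Trim27 replicates 1 to 4, against 67.7, 73.5, 77.8 and 72.7 CPM in GFP replicates 1 to 4. The lowest library with Trim27 virus was well above the highest GFP library. Its level was 146.2 ± 5.03 CPM in the Trim27 group and 72.95 ± 4.14 CPM in the GFP group (SD, n = 4 each), a rise of 1.002 on the log2 scale (SE 0.06, adjusted p = 1.4e-15) that was at least 0.53 under every alternative run. Uhrf1 rose more than its partner. Its count as a fraction of that of Dnmt1 was 0.646, 0.648, 0.609 and 0.672 in the Trim27 libraries and 0.420, 0.480, 0.498 and 0.480 in the GFP libraries. The mean log2 ratio was -0.64 ± 0.06 in the Trim27 group and -1.09 ± 0.11 in the GFP group (SD, n = 4 each). The difference was 0.46 (exact permutation test over libraries, 2-sided, adjusted p = 0.0286, the smallest that 70 splits of 8 libraries allow). A factor common to a whole library cancels in this ratio. Removal of the length trend does change its size, with fitted log2 fold changes of 0.53 for Uhrf1 and -0.20 for Dnmt1.

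As context for these replication-linked genes, 23 S phase genes were listed and all were tested. Of these, 14 rose, 6 fell and 3 did not pass, with a median log2 fold change of 0.30 beside 0.14 over all tested genes. The replicative helicase subunit Cdc45 rose to 42.5 ± 2.19 CPM in the Trim27 group, against 14.4 ± 0.674 CPM in the GFP group. Mcm4, another subunit of that helicase, rose (0.70, SE 0.06), and Ccne1, a cyclin of entry into S phase, fell (-1.25, SE 0.06). The helicase subunits did not move together. Mcm2 (0.46), Mcm3 (0.30) and Mcm7 (0.37) rose, while Mcm5 (-0.28) and Mcm6 (-0.39) fell. A larger log2 fold change than that of Uhrf1 was found for 2 of the 23, and a larger one than that of Dnmt1 for 4. With the length trend removed the balance of the list turned to 6 rises and 11 falls (median -0.12).

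Dnmt3a, a writer at new sites, had 29.8, 32.3, 30.6 and 29.96 CPM in Trim27 replicates 1 to 4, against 7.43, 7.45, 3.83 and 5.55 CPM in GFP replicates 1 to 4. GFP replicate 3 was the lowest, at 32 counts, and the other GFP libraries had up to 70. Dnmt3a averaged 30.7 ± 1.14 CPM in the Trim27 group and 6.06 ± 1.74 CPM in the GFP group (SD, n = 4 each), so the log2 fold change was 2.33 (SE 0.14, adjusted p = 3.8e-15), or 5.04-fold, and it was 1.48 with the length trend removed. An annotated antisense transcript, Dnmt3aos, shares 133 exon bases with it, and was listed at 0 counts in every library.

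Dnmt3b, the related writer, had 57.1, 52.5, 54.0 and 50.4 CPM in Trim27 replicates 1 to 4, against 33.2, 28.4, 29.7 and 29.2 CPM in GFP replicates 1 to 4. The groups did not overlap. Its mean was 53.5 ± 2.81 CPM in the Trim27 group and 30.1 ± 2.14 CPM in the GFP group (SD, n = 4 each). The fitted log2 fold change was 0.83 (SE 0.08, adjusted p = 1.5e-10), and it was 0.30 with the length trend removed. The 2 writers therefore moved by different amounts. The count ratio of Dnmt3a to Dnmt3b was 0.523, 0.616, 0.568 and 0.595 in the Trim27 libraries and 0.225, 0.264, 0.131 and 0.192 in the GFP libraries. That is 2.93-fold higher in the Trim27 group (difference of log2 means 1.55, exact permutation test, adjusted p = 0.0286). The ratio of Dnmt1 to Dnmt3a fell to 7.40, 7.06, 7.57 and 7.56 in the Trim27 libraries, against 21.6, 20.5, 40.3 and 27.0 in the GFP libraries (difference of log2 means -1.83, exact permutation test, adjusted p = 0.0286).

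The TET genes differed most among themselves. Tet2 and Tet3, whose order changed between the groups, are shown by the 250 bases before their annotated starts, since these differ in the density of CG dinucleotides, where most DNA methylation of mammals is set. CG is in capitals, 5′ to 3′, from the RefSeq table on GRCm38.p6, with Tet2 at chr3:133544391-133544640 and Tet3 at chr6:83441679-83441928, both on the minus strand.
Tet2: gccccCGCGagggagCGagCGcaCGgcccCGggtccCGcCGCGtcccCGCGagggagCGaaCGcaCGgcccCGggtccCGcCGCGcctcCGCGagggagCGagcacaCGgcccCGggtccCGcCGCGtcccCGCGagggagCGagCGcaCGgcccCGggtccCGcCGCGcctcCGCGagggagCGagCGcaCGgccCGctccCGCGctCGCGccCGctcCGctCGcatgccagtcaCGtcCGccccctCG
Tet3: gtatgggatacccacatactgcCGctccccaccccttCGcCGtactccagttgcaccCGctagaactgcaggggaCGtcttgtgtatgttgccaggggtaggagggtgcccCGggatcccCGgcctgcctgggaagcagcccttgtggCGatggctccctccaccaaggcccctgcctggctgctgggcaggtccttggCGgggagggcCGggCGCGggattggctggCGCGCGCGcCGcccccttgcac
The Tet2 window held 51 CG dinucleotides and the Tet3 window 17, where the median over all windows was 6 and the upper quartile 16. The windows of Dnmt3a held up to 40, and that of Tet1 held 15. Each of the 9 genes had at least 1 window with 15 or more.

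Tet3 had 23.5, 17.3, 19.4 and 18.9 CPM in Trim27 replicates 1 to 4, against 1.71, 2.87, 1.55 and 1.85 CPM in GFP replicates 1 to 4. The lowest Trim27 library held 223 counts and the highest GFP library 27. Tet3 averaged 19.8 ± 2.64 CPM in the Trim27 group and 1.998 ± 0.596 CPM in the GFP group (SD, n = 4 each). Its log2 fold change was 3.29 (SE 0.19, adjusted p = 8.9e-16), or 9.80-fold, and 2.45 with the length trend removed.

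Tet1 was the least abundant of the 9. It had 59, 29, 67 and 34 counts in Trim27 replicates 1 to 4, against 2, 0, 0 and 2 counts in GFP replicates 1 to 4. Most small counts in the table were even numbers, which would follow if a pair counted as 2 reads, and each of the 2 GFP libraries with a count may then hold a single fragment. The sums were 189 counts in the Trim27 group and 4 in the GFP group, a 27.1-fold higher level with a 95% exact interval from 10.4 to 100.6 that covers counting error only and takes each count as a separate event. With 2 counts taken as 1 fragment the interval was 7.27 to 226.1, and in the fit on halved counts Tet1 did not pass the filter on low counts. The fitted log2 fold change of 4.63 (SE 0.57, adjusted p = 1.1e-08) rests on these few GFP counts. In that fit Tet1 passed the filter through the Trim27 libraries alone, so its call is partly set by the filter.

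Tet2 had 11.9, 8.43, 10.1 and 11.0 CPM in Trim27 replicates 1 to 4, against 7.54, 8.19, 7.65 and 8.95 CPM in GFP replicates 1 to 4. Trim27 replicate 2 lay below GFP replicate 4, so the groups overlapped. The mean was 10.4 ± 1.47 CPM in the Trim27 group and 8.08 ± 0.642 CPM in the GFP group (SD, n = 4 each). The log2 fold change of 0.35 (SE 0.16) passed the threshold narrowly (adjusted p = 0.0415). It no longer passed in 9 of 18 alternatives. Among those were the fits without Trim27 replicate 1, 3 or 4 and without GFP replicate 1, 2 or 3, in which the adjusted p was 0.0606 to 0.178. The value was -0.51 (adjusted p = 0.00347) with the length trend removed, so no direction is given for Tet2.

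Set against each other in the same library, these genes changed order. The count ratio of Tet2 to Tet3 was 0.5045, 0.487, 0.522 and 0.584 in the Trim27 libraries and 4.29, 2.82, 4.78 and 4.73 in the GFP libraries, so that Tet3 had more counts than Tet2 in every library with Trim27 virus and fewer in every GFP library. The difference of the log2 means was -2.96, or 7.77-fold (exact permutation test, adjusted p = 0.0286). Per kilobase of the longest annotated transcript, Tet2 made up 35.8% ± 1.66 of the summed TET level in the Trim27 group and 82.3% ± 3.60 in the GFP group (SD, n = 4 each). For Tet3 the share was 57.7% ± 2.23 in the Trim27 group and 17.0% ± 3.93 in the GFP group, and for Tet1 it was 6.48% ± 1.47 in the Trim27 group and 0.709% ± 0.832 in the GFP group. The share of Tet2 was 30.8% in the Trim27 group and 79.3% in the GFP group when the union of all annotated exons was used as length. The ratio of Tet2 to Tet1 also fell (difference of log2 means -4.201 with 0.5 added to each count, exact permutation test, adjusted p = 0.0286), a value that rests on the 4 GFP counts of Tet1.

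**Figure D2:**
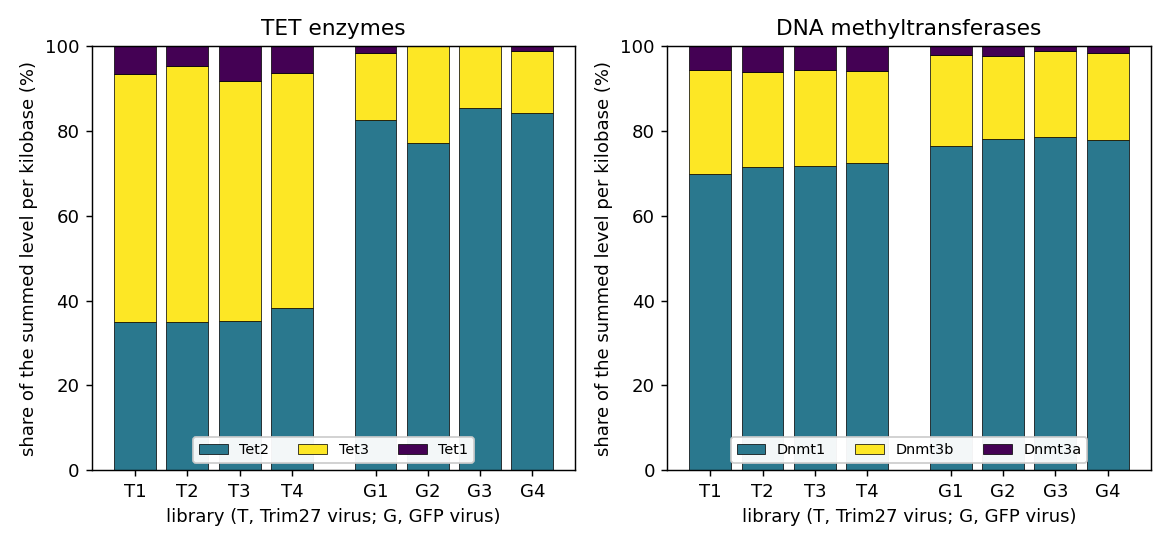
Share of each gene in the summed level per kilobase of the TET enzymes (left) and the DNA methyltransferases (right), in %, for each library (T1 to T4, Trim27 virus; G1 to G4, GFP virus). Tet2 takes 34.9% to 38.3% in Trim27 libraries and 77.2% to 85.4% in GFP libraries, while Dnmt1 takes most of the writers' level in both groups (69.8% to 72.3% with Trim27 virus and 76.5% to 78.6% with GFP virus).

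**Figure D3:**
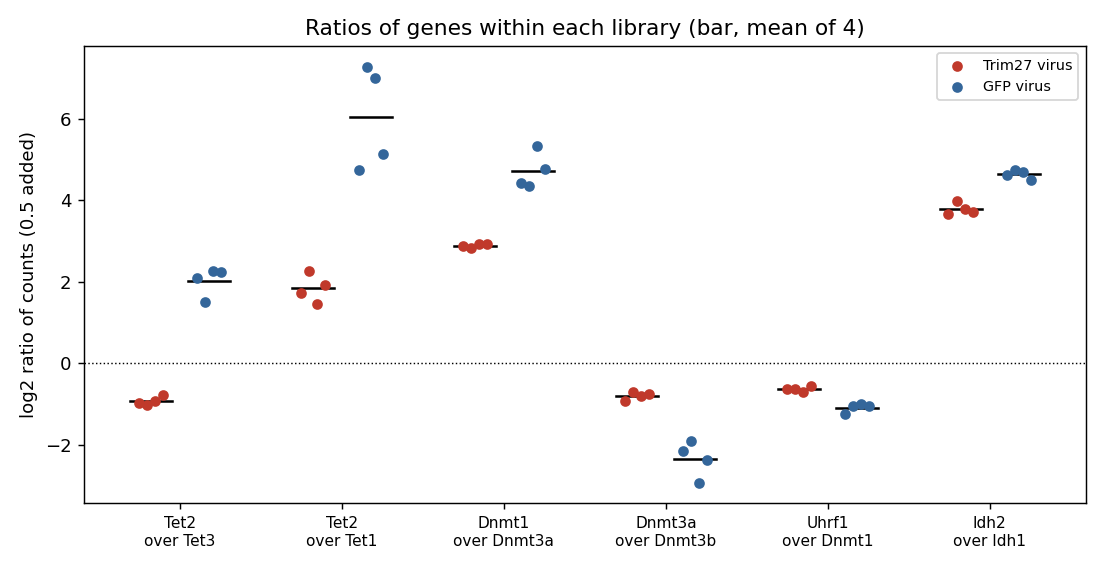
Log2 ratio of the counts of pairs of genes in the same library, with 0.5 added to each count. Points are libraries, Trim27 virus left of GFP virus, and bars are means of 4; values above 0 mean more counts for the gene named first. The groups do not overlap for any of the 6 ratios, and only Tet2 over Tet3 lies on different sides of 0 in the groups. How often other pairs of genes separate in this way was not computed. Taken singly, 80.7% of all tested genes do not overlap, so the separation alone is no result about these pairs.

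Idh1, the cytosolic enzyme, had 34.5, 30.3, 33.4 and 36.2 CPM in Trim27 replicates 1 to 4, against 21.5, 18.3, 19.7 and 21.6 CPM in GFP replicates 1 to 4. Each library with Trim27 virus was above every GFP library. The level was 33.6 ± 2.48 CPM in the Trim27 group and 20.3 ± 1.57 CPM in the GFP group (SD, n = 4 each). The log2 fold change was 0.73 (SE 0.10, adjusted p = 9e-08), with a range of 0.49 to 1.03 over the alternatives.

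Idh2, the mitochondrial enzyme, was by far the most abundant of the 9 genes. It had 433.6, 478.5, 457.1 and 473.2 CPM in Trim27 replicates 1 to 4, against 527, 493.8, 515.7 and 491.8 CPM in GFP replicates 1 to 4. The groups lay close together without overlap. The mean was 460.6 ± 20.2 CPM in the Trim27 group and 507.1 ± 17.1 CPM in the GFP group (SD, n = 4 each). The log2 fold change of -0.14 (SE 0.05, adjusted p = 0.00785) turned to 0.16 (adjusted p = 0.000932) under library size alone, to 0.088 with the trend of abundant genes alone taken out, and to 0.11 when only genes of at least 6 log2 CPM were used. Library size alone also moved the median of all tested genes, to 0.44, where it was 0.14 under TMM. Relative to that median Idh2 was at -0.28 under both scalings, which follows because such a change shifts all genes by about the same amount. Relative to the median of other fits Idh2 was at -0.16 with the filter of 10 CPM in 4 libraries. It was at 0.11 with genes of at least 6 log2 CPM only. The ratio of Idh2 to Idh1, in which a factor common to a whole library cancels, was 12.6, 15.8, 13.7 and 13.04 in the Trim27 libraries and 24.5, 26.9, 26.1 and 22.7 in the GFP libraries. The difference of the log2 means was -0.87 (exact permutation test, adjusted p = 0.0286), and Idh1 made up 5.38% ± 0.489 of the summed level per kilobase of this pair in the Trim27 group and 3.02% ± 0.221 in the GFP group (SD, n = 4 each).

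Levels of different genes can be compared only per length. In CPM per kilobase of the longest annotated transcript, the order in the Trim27 group was Idh2 (257.3 ± 11.3), Uhrf1 (40.8 ± 1.403), Dnmt1 (38.7 ± 0.802), Idh1 (14.6 ± 1.08), Dnmt3b (12.4 ± 0.650), Dnmt3a (3.17 ± 0.118), Tet3 (1.82 ± 0.242), Tet2 (1.13 ± 0.160) and Tet1 (0.207 ± 0.0619). Libraries of neighbours in this order overlapped for Uhrf1 and Dnmt1 and for Idh1 and Dnmt3b. Within a library, Uhrf1 was above Dnmt1 in 3 of 4 and Idh1 above Dnmt3b in 4 of 4. In the GFP group it was Idh2 (283.3 ± 9.57), Dnmt1 (26.5 ± 0.741), Uhrf1 (20.3 ± 1.154), Idh1 (8.81 ± 0.681), Dnmt3b (6.97 ± 0.496), Tet2 (0.881 ± 0.0699), Dnmt3a (0.626 ± 0.179), Tet3 (0.183 ± 0.0546) and Tet1 (0.00755 ± 0.00875, SD, n = 4 for each), and no neighbours overlapped. With the union of exons as length, Uhrf1 and Dnmt1 no longer overlapped in the Trim27 group, and Tet2 and Dnmt3a overlapped in the GFP group. Dnmt1, Uhrf1 and Dnmt3b lay above all 3 erasers in either group. On the scale of the longest transcript Dnmt3a lay above Tet3 and Tet2 in every library with Trim27 virus, and below Tet2 in every GFP library.

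The fold changes were read beside those of all tested genes in the same range of abundance and transcript length, because both move with the comparison. Tet3 (3.29) and Dnmt3a (2.33) were above the upper quartile of 1.72 for 160 genes from 2 to 4 log2 CPM and 8000 bases or more, whose median was 0.64, while Tet2 (0.35) was below that median. Uhrf1 (1.002) was above the upper quartile of 0.33 for 864 genes from 6 to 8 log2 CPM and 2000 to 4000 bases. Dnmt1 (0.55) was just above the upper quartile of 0.48 for 369 genes of the same abundance and 4000 to 8000 bases. Dnmt3b (0.83) and Idh1 (0.73) stayed just inside the upper quartiles of 0.86 and 0.84 for genes like them. Tet1 (4.63) was inside the middle range of 0.33 to 5.67 for 182 long genes under 2 log2 CPM, of which 72.5% rose. Tet1 passed the filter on low counts through the Trim27 libraries alone, and genes that entered this range in the same way had to differ, so that share is partly set by the filter. Idh2 (-0.14) was also inside its range, -0.71 to 0.01 around a median of -0.37 for 185 genes.

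**Figure D4:**
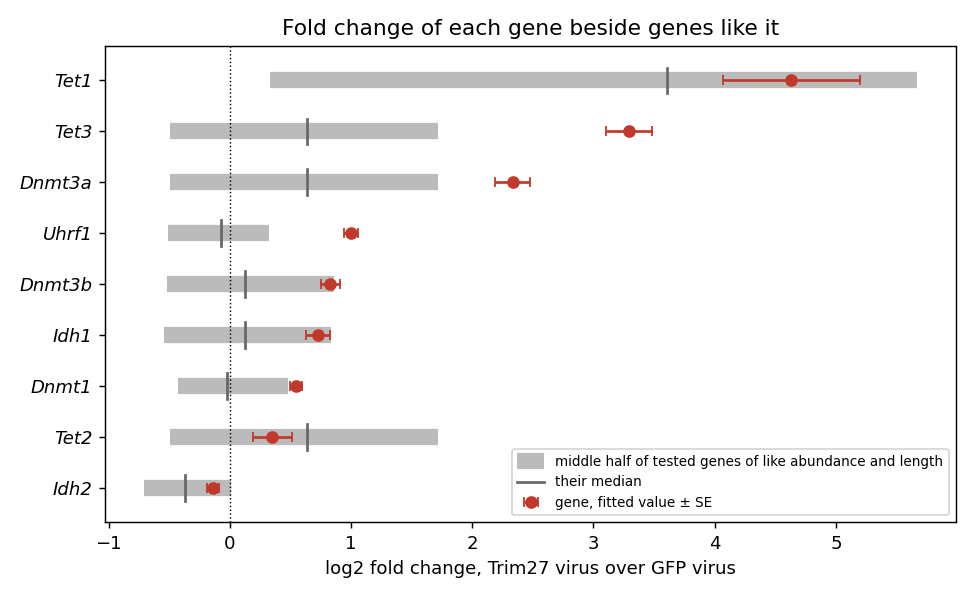
Fitted log2 fold change of each gene, Trim27 virus over GFP virus, with its SE (points and whiskers), over the range between quartiles (grey band) and the median (dark tick) of all tested genes in the same range of abundance and transcript length. Tet3, Dnmt3a, Uhrf1 and Dnmt1 lie above their band, and the other 5 lie inside it.

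The size of the changes depended on the scaling. Tet3, Dnmt3a, Uhrf1, Dnmt3b and Idh1 were higher and past the threshold under every alternative in which they were tested. Tet1 was too in the 17 alternatives that tested it. It entered those with a filter on low counts through the Trim27 libraries alone, so its calls there are no separate support. Dnmt1 and Tet2 turned negative only with the length trend removed, and Idh2 turned positive under the 3 settings named above. Of all calls, 66.9% were rises under library size alone, against 55.6% under TMM.

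**Figure D5:**
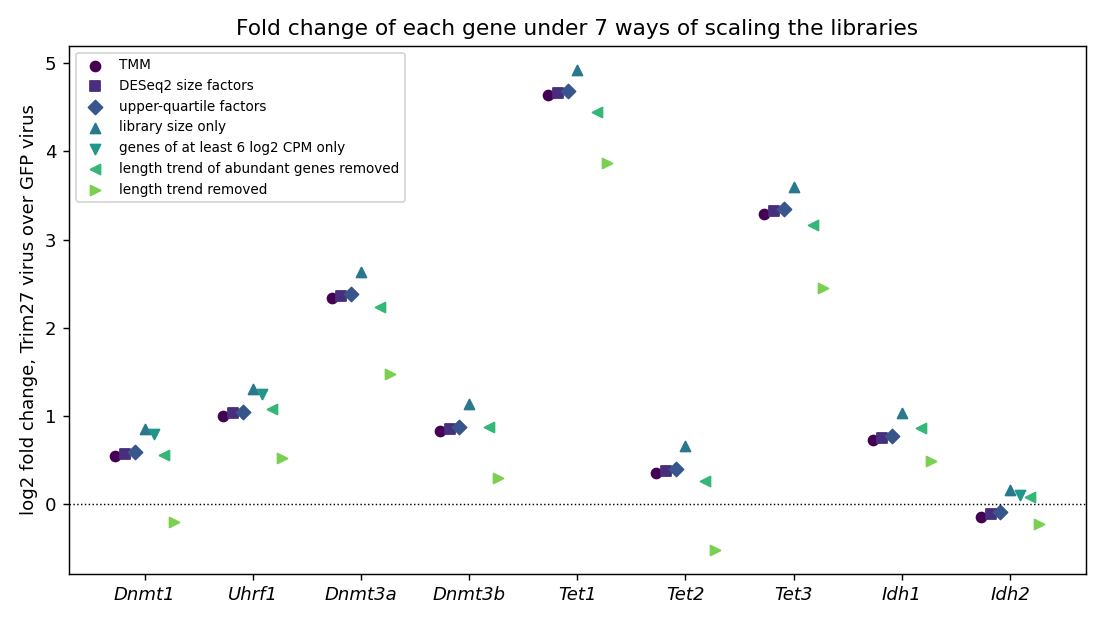
Log2 fold change of each gene, Trim27 virus over GFP virus, under the scalings named in the legend. Genes under 6 log2 CPM have no point for the setting that uses abundant genes only. Removing the length trend gives the lowest value for every gene, down to -0.20 for Dnmt1 and -0.51 for Tet2, and library size alone the highest.

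Genes whose pattern over the 8 libraries was most like a member's were found by the smallest root mean square difference of log2 CPM after centring each gene, among 5354 genes of at least 4 log2 CPM. For Tet3 these were Thbs1, a secreted matrix glycoprotein (difference 0.08, log2 fold change 3.15), and Mesdc2 (0.15, 3.22). For Dnmt3a they were Sepn1, a selenoprotein (0.13, 2.34), and Tada1 (0.18, 2.48). For Uhrf1 they were Lpin2 (0.03, 0.96) and Ube2z (0.05, 1.03), and for Dnmt1 Hsp90ab1, a cytosolic chaperone (0.03, 0.53), and Ccdc86 (0.03, 0.56). For Dnmt3b they were Cops4 (0.04, 0.80) and Ubtf (0.06, 0.89), for Idh1 Tax1bp1 (0.06, 0.74) and Mlx (0.07, 0.78), for Idh2 the elongation factor gene Eef2 (0.03, -0.16) and Txndc5 (0.03, -0.16), and for Tet2 Ube2n (0.05, 0.34) and Ppp1cb (0.06, 0.39). No gene came close to Tet1, for which Tmem248 (0.45, 3.31) and Sept11 (0.46, 3.78) were nearest. These measures describe 8 libraries that fall into 2 groups.

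Of 76 other genes of the wider pathway, in 7 lists, 67 were tested, 36 rose, 22 fell and 9 did not pass. These are 53.7% higher and 32.8% lower, near the background of 47.5% and 38% over all tested genes, with a median log2 fold change of 0.21 beside 0.14 over all tested genes, while removal of the length trend gave 27 higher and 34 lower (median -0.15). The counts of the single lists below have to be read against the same background. Some of the 36, Dnmt3l and Neil3 among them, passed the filter on low counts through the Trim27 libraries alone. Because counting by strand is not stated, genes that overlap another on the opposite strand are uncertain, and of those named below these are Dnmt3l (with Aire, at 0 counts), Lig3, Cxxc5, Kmt2a, Shmt1 and Bcat2, as well as Cdc45, Dnmt3a and Tet2 above (the last with the antisense Gm42567 over 43 exon bases).

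Among relatives and cofactors of the writers, 11 were tested, with 7 higher, 3 lower and 1 not past the threshold (median 0.50). Dnmt3l, the partner without catalytic activity that assists Dnmt3a and Dnmt3b in germ cells, had 7.40, 6.44, 8.28 and 6.70 CPM in Trim27 replicates 1 to 4, against 0 counts in each GFP library. With 2 counts taken as 1 fragment and a floor of 3 fragments over the GFP group, it was at least 43.8-fold higher, counting error only. Dnmt3l passed the filter on low counts through the Trim27 libraries alone, so its place among the 7 is partly set by the filter. Trdmt1, a relative of the writers that methylates transfer RNA, fell to 1.07 ± 0.432 CPM in the Trim27 group, against 14.9 ± 2.94 CPM in the GFP group (log2 fold change -3.76, SE 0.23). The corepressor Trim28, which recruits silencing to retroelements, rose to 477.7 ± 29.2 CPM in the Trim27 group, against 278.6 ± 7.24 CPM in the GFP group (0.78, SE 0.05).

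Of 5 tested genes for methyl-CpG binding proteins, 1 rose, 2 fell and 2 did not pass (median -0.23). Mbd3, a subunit of the NuRD repressor complex, fell to 217.2 ± 20.4 CPM in the Trim27 group, against 553.5 ± 29.3 CPM in the GFP group (-1.35, SE 0.06). Mbd1, another protein of this family, rose (1.61, SE 0.16). Among proteins that bind unmethylated CpG, none of 4 tested genes rose and 2 fell. The histone methyltransferase gene Kmt2a fell to 1.59 ± 0.345 CPM in the Trim27 group, against 9.03 ± 1.23 CPM in the GFP group (-2.50, SE 0.23). The demethylase gene Kdm2a had a log2 fold change of -0.83 (SE 0.32, adjusted p = 0.0182), which did not pass without GFP replicate 1 (-0.48, adjusted p = 0.183).

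Base excision repair removes the bases that TET enzymes oxidise. Of this list 12 were tested, with 7 higher, 3 lower and 2 not past the threshold (median 0.36). Neil3, a DNA glycosylase, rose to 26.7 ± 1.45 CPM in the Trim27 group, against 0.454 ± 0.294 CPM in the GFP group (5.89, SE 0.23). It had 7, 2, 5 and 2 counts in GFP replicates 1 to 4. Neil3 passed the filter on low counts through the Trim27 libraries alone, so its call is partly set by the filter. Parp1, a sensor of strand breaks, rose to 195.1 ± 5.41 CPM in the Trim27 group, against 101.1 ± 2.90 CPM in the GFP group, and the ligase gene Lig3 rose by 1.84 (SE 0.14) on the log2 scale. Of 6 tested partners and regulators of the TET enzymes, 5 rose and 1 fell (median 1.55), where 85.5% of all tested genes were called and 47.5% rose. They included Ogt, which attaches acetylglucosamine to proteins and binds TET enzymes (33.8 ± 3.99 CPM in the Trim27 group and 13.5 ± 1.17 CPM in the GFP group), the ubiquitin ligase scaffold gene Cul4a (1.78, SE 0.09) and Cxxc5 (1.83, SE 0.15).

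Methyl groups reach DNA through folate and S-adenosylmethionine. For methyl donor supply 10 were tested, with 7 higher, 2 lower and 1 not past the threshold (median 0.31). With the length trend removed 4 of these were higher and 6 lower (median -0.18). The folate enzymes Shmt1 and Mthfd2 rose to 126.6 ± 2.20 and 227.1 ± 12.1 CPM in the Trim27 group, against 45.8 ± 0.366 and 86.6 ± 8.05 CPM in the GFP group. The 19 genes of 2-oxoglutarate and 2-hydroxyglutarate metabolism, the list closest to Idh1 and Idh2, were evenly split under TMM, with 9 higher, 9 lower and 1 that did not pass (median 0.06). That balance depended on the scaling, with 5 higher and 12 lower once the length trend was removed (median -0.26). Bcat2, the mitochondrial aminotransferase of branched-chain amino acids, fell to 58.5 ± 6.76 CPM in the Trim27 group, against 118.3 ± 1.80 CPM in the GFP group (-1.01, SE 0.07).

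Libraries held 10551137 to 16366571 counts in the Trim27 group and 9257889 to 10747794 in the GFP group, with 12962 to 13283 genes detected in the Trim27 group and 11131 to 11850 in the GFP group. Trim27 itself was at 292.7 ± 18.4 CPM in the Trim27 group and 180.5 ± 8.52 CPM in the GFP group (log2 fold change 0.70, and 0.17 with the length trend removed). All 12 markers of myeloid progenitors were tested, with a summed level of 2234 to 2458 CPM in the Trim27 group and 2092 to 2197 CPM in the GFP group; 2 rose and 9 fell. Markers of other cells moved as well. All these marker counts have to be read against 85.5% of all tested genes called, 47.5% higher and 38% lower. The 8 erythroid markers in the table summed to 1153 to 1374 CPM in the Trim27 group and 1684 to 1767 CPM in the GFP group (3 higher, 5 lower), and the 8 B cell markers to 39.0 to 56.0 CPM in the Trim27 group and 54.8 to 144.3 CPM in the GFP group (4 of 7 tested lower). The 8 megakaryocyte markers summed to 899.2 to 932.9 CPM in the Trim27 group and 1066 to 1144 CPM in the GFP group (3 higher, 3 lower). The 8 mast cell, basophil and eosinophil markers summed to 105.7 to 122.8 CPM in the Trim27 group and 99.3 to 103 CPM in the GFP group (4 higher, 2 lower). Macrophage markers (6 of 8 at 0 throughout) summed to 9.69 to 11.9 CPM in the Trim27 group and at most 0.957 CPM in the GFP group, and T and NK cell markers to 2.53 to 3.56 CPM in the Trim27 group and 28.6 to 32.0 CPM in the GFP group. Only 1 of the 7 T and NK cell markers passed the filter on low counts, and it was lower. Hepatocyte markers (Alb among 4 of 7 at 0) summed to 14.9 to 16.4 CPM in the Trim27 group and 1.20 to 1.70 CPM in the GFP group, and endothelial or stromal markers (5 of 8 at 0) to 28.1 to 28.8 CPM in the Trim27 group and 28.8 to 37.1 CPM in the GFP group. Their part in the results for the 9 genes was not tested, and in such bulk libraries fewer cells of a type and less RNA per cell cannot be told apart.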

How the data were processed

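The deposited table holds raw counts for each gene symbol in 8 libraries. HISAT2, featureCounts, bcl2fastq and the build NCBIM37 are named in the submitters' processing notes, without versions or roles. How strand and multiply mapped reads were handled, and which annotation was used, is not given in the sources used here. Even numbers made up 64.7% to 67.0% of counts between 1 and 10 in Trim27 libraries and 68.4% to 72.0% in GFP libraries, so a pair may have counted as 2 reads. The 1 unnamed line held no counts and was left out.

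Counts were fitted in R 4.3.3 with edgeR 4.0.16: filterByExpr (minimum count 10, minimum total 15), which kept 11040 genes and all 9 members, TMM scaling, and the robust quasi-likelihood test, Trim27 over GFP, 2-sided, with no covariate and Benjamini-Hochberg adjustment over all tested genes (threshold 0.05). An SE is the absolute log2 fold change over the root of F. Intervals and floors cover counting error only. The fit was tested on simulated data in which few genes changed, evenly up and down and without a length trend. That check does not cover a comparison in which 85.5% of tested genes are called. Within-library ratios used counts plus 0.5 and an exact permutation test over libraries, adjusted over 6 ratios. Transcript lengths came from GENCODE M21 and covered 99.5% of tested genes. Alternatives were other scalings, filters and tests (DESeq2 1.42.0, limma 3.58.1 voom), halved counts, length trend offsets, a replicate block and leaving out each library; the union of exons as length, and 2 counts as 1 fragment for sparse genes, were added after seeing the data.

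The members, lists and alternatives were chosen with earlier results of these data known. Genes named are all members, up to 3 called genes per list by smallest p, and the 2 genes most like each member. Some genes that this rule names are not reported here, and list counts include them.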

Additional observations from a re-analysis of the deposited data

Results flagged for a closer look

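Of 82 groups of 4 libraries examined for a single library far from the rest, 2 had one, where chance gives about 1 in 20. The share of Tet2 in the TET level per kilobase was 38.3% in Trim27 replicate 4 and close to 35% in the other Trim27 libraries. The share of Tet3 was 22.8% in GFP replicate 2, above the other GFP libraries.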

How the results depend on the processing

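The alternatives numbered 20. Of the members, 8 were called higher, and 7 or 8 were without any 1 library and 3 when only genes of at least 6 log2 CPM were used, where 3 members could be tested. The count of 1 member lower was 0 with upper-quartile factors, with library size alone, with the trend of abundant genes taken out and with abundant genes only, and 3 after removal of the length trend. Idh2 reversed to 0.16, 0.0881 and 0.11 under library size alone, the length trend of abundant genes and abundant genes only; Dnmt1 reversed to -0.20 and Tet2 to -0.51 with the length trend removed. The cause was not tested, except that the abundant-gene setting tests fewer genes. Of 76 pathway genes, 36 rose and 22 fell; 34 fell after removal of the length trend; among abundant genes 21 rose and 9 fell. Over all genes 5249 rose and 4193 fell, with 3453 rises at 10 CPM in 4 libraries, and 1104 rises and 1083 falls among abundant genes. The 6 ratios kept their direction and their side of the threshold with 1 count added and with either length trend removed. Without any 1 library they kept their direction, recomputed as values with no test. Replicate numbers did not pair the libraries: deviations of same-numbered libraries had correlations of -0.03 to 0.02 across genes, and 2 of 8 libraries matched best with their own number. With the replicate number as a block, 7 members rose and 1 fell, since Tet2 did not pass (0.35, adjusted p = 0.0821); over all genes 5133 rose and 4027 fell. Depth limits Tet1 most, with 4 counts over the GFP libraries.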
